A study of Mus musculus with 12 samples.

Results

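*Amh* encodes anti-Müllerian hormone, a secreted ligand of the TGF-β family that Sertoli cells of the fetal testis and granulosa cells of the ovary make and that brings about regression of the Müllerian ducts. The hormone binds a dedicated type II receptor, AMHR2, which recruits type I receptors shared with the BMPs and passes the signal to SMAD1, SMAD5 and SMAD9. In the mouse genome *Amh* lies immediately downstream of *Sf3a2*, a housekeeping gene whose protein is a subunit of the SF3a complex of the U2 snRNP, the particle that recognises the branch site during splicing. Described here are 6 of the 42450 listed genes, namely *Amh*, its receptor gene *Amhr2*, and *Sf3a2*, *Plekhj1*, *Jsrp1* and *Oaz1*, which flank *Amh* on chromosome 10. They were selected by gene symbol, with the level of *Amh* after *Srrm2* knockdown already known, so the *Amh* values are given as a description without a test. All 6 members passed the filter on low counts, as did 19410 genes in all.

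The samples were wild-type E14tg2a.4 mouse embryonic stem cells, an established line. By the paper's methods, cells were grown with serum and LIF, and in serum-free medium with LIF before collection. They received 50 nM siRNA against *Srrm2*, the gene of a large nuclear speckle and splicing protein (Srrm2-KD), or against the firefly luciferase sequence Gl2, which mouse cells lack (Gl2-KD). Cells were collected at 24 h, or at 72 h with a repeated transfection in between. Each of the 4 groups had 3 polyA+ RNA libraries, from experiments 1, 2 and 3, which used different thaws and passages of 1 line, and the 12 libraries held 73933196 to 153343831 estimated counts.

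Expression of the targeted gene was lower in every Srrm2-KD library than in the Gl2-KD library of the same experiment and time. In counts per 1000000 of the library total scaled with TMM factors (CPM), *Srrm2* stood at 911, 496 and 449 in Gl2-KD 24 h (experiments 1, 2 and 3) and at 517, 154 and 200 in Srrm2-KD 24 h. At 72 h the Gl2-KD libraries held 962, 479 and 442 CPM and the Srrm2-KD libraries 461, 182 and 217. Experiment 1 thus had the highest *Srrm2* level under either siRNA, and its libraries stood apart from the others on the leading principal component, which held 42.0% of the variance. The log2 fold change of *Srrm2* was -1.22 (SE 0.14, adjusted p = 0.0663) at 24 h, -1.16 (SE 0.14, adjusted p = 0.0991) at 72 h and -1.19 (SE 0.10, adjusted p = 0.00254) for the mean of both times by edgeR's quasi-likelihood test with the experiment as a block. For *Srrm2* at 24 h and 72 h DESeq2 gave an adjusted p of 5.0e-11 and 1.7e-09, and limma-voom 0.0277 and 0.0218. Defining markers of embryonic stem cells were present throughout, the 8 genes of that list summing to between 4705 CPM and 7313 CPM, and none of them was called in the knockdown contrasts by edgeR, DESeq2 or limma-voom (unadjusted p below 0.05 for 0 genes at 24 h and for *Esrrb* and *Dppa5a*, 2 genes, at 72 h).

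The 4 neighbours frame *Amh* closely (coordinates from GENCODE M21, GRCm38). *Amh* occupies chr10:80805243-80807648 on the plus strand, with 1 annotated transcript of 5 exons and 1670 bases. *Sf3a2*, at chr10:80798198-80804924 on the same strand, ends 318 bases before it, and the annotation holds no transcript that joins the pair. *Plekhj1*, which encodes a pleckstrin homology domain protein, runs in the opposite direction at chr10:80796099-80798626 and overlaps the 5′ end of *Sf3a2* by 429 bases. Reads within that overlap are uncertain, because it is not stated whether the counting used strand. *Jsrp1*, the gene of a junctional sarcoplasmic reticulum protein of skeletal muscle, converges on *Amh* from chr10:80808496-80813498, with 847 bases between the 3′ ends. *Oaz1*, at chr10:80826656-80829290 on the plus strand, encodes antizyme 1, which inhibits ornithine decarboxylase and directs it to the proteasome. The receptor gene *Amhr2* lies elsewhere, at chr15:102445367-102454633 on the plus strand, with no overlapping gene.

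Of the members, *Amhr2* is the one whose upstream bases are shown, since the receptor decides which cells can respond to the hormone and its promoter window contains a motif of the NR5A nuclear receptors, regulators of gonadal genes. *Amh* and *Jsrp1* had no entry among the promoter windows, so the motif could not be searched before either gene. Windows existed for *Sf3a2*, *Plekhj1* and *Oaz1* but are not printed. The 250 bases before its RefSeq start (GRCm38.p6, chr15:102445117-102445366, plus strand) are printed 5′ to 3′ with the motif AAGGTCA in capitals. AAGGTCA was searched on both strands, occurs 1 time here, beginning 231 bases before the start, and is found in 4.08% of 32851 promoter windows of this length.
Amhr2 promoter: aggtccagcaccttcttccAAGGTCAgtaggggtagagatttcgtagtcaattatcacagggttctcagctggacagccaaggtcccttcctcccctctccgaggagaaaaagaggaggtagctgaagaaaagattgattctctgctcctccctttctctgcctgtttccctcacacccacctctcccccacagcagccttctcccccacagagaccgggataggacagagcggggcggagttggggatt
The match is a description of these letters only. *Nr5a2*, the NR5A gene expressed in embryonic stem cells, averaged 82.6 CPM in Gl2-KD 24 h and 81.1 CPM in Srrm2-KD 24 h, whereas *Nr5a1* did not pass the filter and reached at most 6 counts in any library.

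*Amh* was scarce in control cells and higher in every Srrm2-KD library. These are bulk RNA levels, in which more expressing cells and more RNA per cell cannot be told apart. In Gl2-KD 24 h the counts were 34, 78 and 37 in experiments 1, 2 and 3, equal to 0.389, 0.556 and 0.338 CPM. In Srrm2-KD 24 h they were 160, 354 and 231, equal to 0.986, 2.85 and 2.44 CPM. The lowest knockdown library was therefore above the highest control library, and experiment 1 gave the smallest rise.

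At 72 h the Gl2-KD libraries held 43, 41 and 66 counts of *Amh*, or 0.351, 0.314 and 0.502 CPM. The Srrm2-KD libraries held 834, 356 and 130 counts, or 5.19, 4.70 and 1.77 CPM. Again the groups did not overlap, and experiment 3 gave the lowest knockdown library and the smallest change at this time. All 12 counts of *Amh* were whole numbers within 0.01, as were those of *Jsrp1*. The counts of *Sf3a2* were whole in 7 libraries, and those of *Plekhj1*, *Amhr2* and *Oaz1* in 0. Whole totals do not show how reads shared between genes were assigned, which was not tested.

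Group means of *Amh* were 0.427 ± 0.114 CPM (SD, n = 3) in Gl2-KD 24 h, 2.09 ± 0.981 CPM (SD, n = 3) in Srrm2-KD 24 h, 0.389 ± 0.0998 CPM (SD, n = 3) in Gl2-KD 72 h and 3.89 ± 1.85 CPM (SD, n = 3) in Srrm2-KD 72 h. The fitted log2 fold change was 2.27 (SE 0.47) at 24 h and 3.29 (SE 0.49) at 72 h. Without experiment 1 these values were 2.59 and 2.85, and without experiment 3 they were 1.94 and 3.90. These fits kept the sign and the order of the times, while the gap between the times varied. Within experiment 3 the order was the reverse, with Srrm2-KD to Gl2-KD ratios of 7.24 at 24 h and 3.53 at 72 h. Among the 19410 genes tested, *Amh* had the 60th highest log2 fold change at 24 h and the 28th highest at 72 h, a ranking given as a description since this contrast chose the gene.

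Within experiments, the ratio of *Amh* in Srrm2-KD to Gl2-KD at 24 h was 2.54 in experiment 1 (95% counting interval 1.74 to 3.79), 5.13 in experiment 2 (4.00 to 6.64) and 7.24 in experiment 3 (5.10 to 10.5). At 72 h it was 14.8 in experiment 1 (10.9 to 20.6), 14.96 in experiment 2 (10.8 to 21.2) and 3.53 in experiment 3 (2.60 to 4.82). These exact intervals cover counting error only, and those of experiments 1 and 3 at 72 h do not overlap, so the experiments differed by more than their counting error. Beside these, *Srrm2* was left at a ratio of 0.567, 0.310 and 0.445 at 24 h and of 0.479, 0.379 and 0.491 at 72 h in experiments 1, 2 and 3. At 72 h experiments 1 and 3 thus had nearly equal *Srrm2* ratios beside *Amh* ratios of 14.8 and 3.53. The *Srrm2* level left in Srrm2-KD 72 h was 461 CPM in experiment 1 and 217 CPM in experiment 3. A relation of *Srrm2* to the *Amh* ratios was not tested.

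Between times, *Amh* in the control cells had a 72 h to 24 h ratio of 0.902, 0.565 and 1.49 in experiments 1, 2 and 3 of Gl2-KD and a fitted log2 change of -0.09 (SE 0.47). In Srrm2-KD the same ratio was 5.27, 1.65 and 0.726, a fitted log2 change of 0.93 (SE 0.45). The experiments went in different directions under both siRNAs. The difference of the knockdown effects, 72 h minus 24 h, was 1.01 (SE 0.66) on the log2 scale. All 3 values depended on single experiments or libraries. Without experiment 1 the difference was 0.26 and the Srrm2-KD time change 0.21, and without experiment 3 they were 1.96 and 1.49. The Gl2-KD time change was -0.48 without the 72 h library of experiment 3 and 0.23 without the 72 h library of experiment 2.

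*Sf3a2*, the gene directly upstream, was abundant and was lower, not higher, in Srrm2-KD, by a difference that did not pass the main test. Its CPM was 119, 174 and 120 in Gl2-KD 24 h and 117, 128 and 96.0 in Srrm2-KD 24 h. At 72 h the controls held 109, 138 and 113 CPM, against 89.6, 107 and 98.0 CPM after knockdown. The 24 h groups overlapped and the 72 h groups did not, although the gap between the lowest control and the highest knockdown library at 72 h was small.

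The log2 fold change of *Sf3a2* was -0.26 (SE 0.11, adjusted p = 1) at 24 h and -0.28 (SE 0.11, adjusted p = 0.308) at 72 h by edgeR. For the mean of both times it was -0.27 (SE 0.07, adjusted p = 0.161), and DESeq2 gave an adjusted p of 0.0389 for the same contrast. In 3 of 3 experiments at each time the Srrm2-KD library held less *Sf3a2* than its control, with ratios from 0.734 to 0.982.

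Set against each other, *Amh* reads were a small and variable fraction of *Sf3a2* reads. For every 100 *Sf3a2* counts the control libraries held 0.326, 0.319 and 0.282 *Amh* counts at 24 h and 0.322, 0.227 and 0.446 at 72 h. The Srrm2-KD libraries held 0.841, 2.23 and 2.55 at 24 h and 5.80, 4.39 and 1.81 at 72 h. Expressed as a log2 ratio, the proportion of *Amh* to *Sf3a2* counts (pseudocount 0.5) changed by 2.44 ± 0.96 (SD, n = 3) at 24 h and by 3.47 ± 1.26 (SD, n = 3) at 72 h. Since *Sf3a2* differed little and *Amh* was chosen for its rise, these shifts restate the *Amh* values and bear on no relation between the genes. Transcripts that run from *Sf3a2* into *Amh* were not measured, since gene-level counts hold no reads across the 318 bases between the genes.

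**Figure D1:**
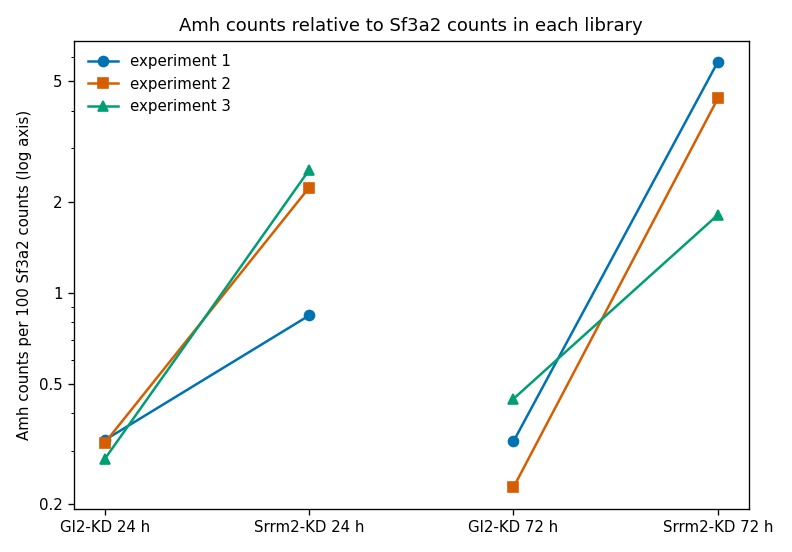
*Amh* counts per 100 *Sf3a2* counts (log axis) in the 12 libraries, with lines joining the Gl2-KD and Srrm2-KD libraries of 1 experiment and time. All 6 lines go up, from between 0.227 and 0.446 in the controls to between 0.841 and 5.80 in the knockdowns.

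*Plekhj1*, on the far side of *Sf3a2*, was lower in all 6 within-experiment comparisons. It stood at 18.9, 19.8 and 26.3 CPM in Gl2-KD 24 h and at 15.5, 11.8 and 16.7 CPM in Srrm2-KD 24 h. At 72 h the values were 15.5, 24.7 and 31.9 CPM in the controls, against 7.26, 13.6 and 20.7 CPM after knockdown. The groups were apart at 24 h and overlapped at 72 h, where experiment 1 was lowest and experiment 3 highest under both siRNAs.

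The Srrm2-KD to Gl2-KD ratio of *Plekhj1* lay between 0.599 and 0.821 at 24 h, and between 0.467 and 0.650 at 72 h. Its log2 fold change was -0.53 (SE 0.23, adjusted p = 1) at 24 h and -0.83 (SE 0.23, adjusted p = 0.196) at 72 h by edgeR. DESeq2 placed the 72 h contrast at an adjusted p of 0.0195, and edgeR fitted to the 72 h libraries alone, with the experiment still as a block, at 0.0232. A further edgeR fit across all 12 libraries, with a replicate block for each experiment and time, was added after the data were seen and gave 0.0242. *Plekhj1* thus passed the threshold in these 3 fits and not in the main edgeR fit.

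*Jsrp1*, downstream of *Amh* on the opposite strand, was about as scarce as *Amh* in control cells and had lower values in Srrm2-KD. Its counts ranged from 30 to 205 over the 12 libraries. The CPM was 0.354, 0.720 and 0.995 in Gl2-KD 24 h and 0.203, 0.330 and 0.677 in Srrm2-KD 24 h. At 72 h the controls held 0.245, 0.690 and 1.56 CPM and the knockdown libraries 0.212, 0.634 and 0.587 CPM. Experiment 1 was lowest in every group, and the groups overlapped at both times.

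The log2 fold change of *Jsrp1* was -0.81 (SE 0.34, adjusted p = 1) at 24 h and -0.61 (SE 0.34, adjusted p = 0.488) at 72 h by edgeR. The 72 h value rested on experiment 3: without that experiment it was -0.17. Of 8 genes whose proteins sit with JSRP1 in the triad of skeletal muscle 7 passed the filter, and *Trdn* was listed at 0 in every library. None of the 7 was called in a knockdown contrast by edgeR, DESeq2 or limma-voom, the unadjusted p was below 0.05 for 0 genes at 24 h and for 1 gene at 72 h, and their median log2 fold change was -0.03 at 24 h and -0.06 at 72 h. Per kilobase *Cacnb1*, a calcium channel subunit gene, was highest at 4.87 CPM per kb, followed by *Jph1* at 0.92 CPM per kb and *Casq1* at 0.91 CPM per kb. The largest differences at 72 h were *Jph2* with -0.93 (SE 0.44), *Cacna1s* with 0.82 (SE 0.60) and *Cacnb1* with -0.42 (SE 0.14, edgeR adjusted p = 0.263).

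*Oaz1*, the next gene downstream, was the most abundant member. Its CPM was 196, 344 and 320 in Gl2-KD 24 h, 202, 347 and 332 in Srrm2-KD 24 h, 168, 253 and 262 in Gl2-KD 72 h and 173, 294 and 276 in Srrm2-KD 72 h. The knockdown moved it by a log2 fold change of 0.04 (SE 0.08, adjusted p = 1) at 24 h and 0.11 (SE 0.08, adjusted p = 0.578) at 72 h by edgeR. Within-experiment ratios lay between 1.01 and 1.17, and experiment 1 was lowest in every group. Between times the level was lower at 72 h in 3 of 3 experiments of each siRNA, with a log2 change of -0.32 (SE 0.08, edgeR adjusted p = 0.0683, DESeq2 adjusted p = 0.00401) in Gl2-KD and -0.24 (SE 0.08, edgeR adjusted p = 0.170) in Srrm2-KD.

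*Amhr2* kept nearly the same level under both siRNAs. It held 4.96, 6.41 and 10.5 CPM in Gl2-KD 24 h, 5.44, 6.02 and 10.4 CPM in Srrm2-KD 24 h, 4.54, 7.25 and 12.6 CPM in Gl2-KD 72 h and 4.64, 7.21 and 11.98 CPM in Srrm2-KD 72 h. Experiment 3 was above experiments 1 and 2 in every group. The log2 fold change was 0.01 (SE 0.15, adjusted p = 1) at 24 h and -0.02 (SE 0.15, adjusted p = 0.972) at 72 h by edgeR, and the 6 within-experiment ratios lay between 0.938 and 1.10.

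**Figure D2:**
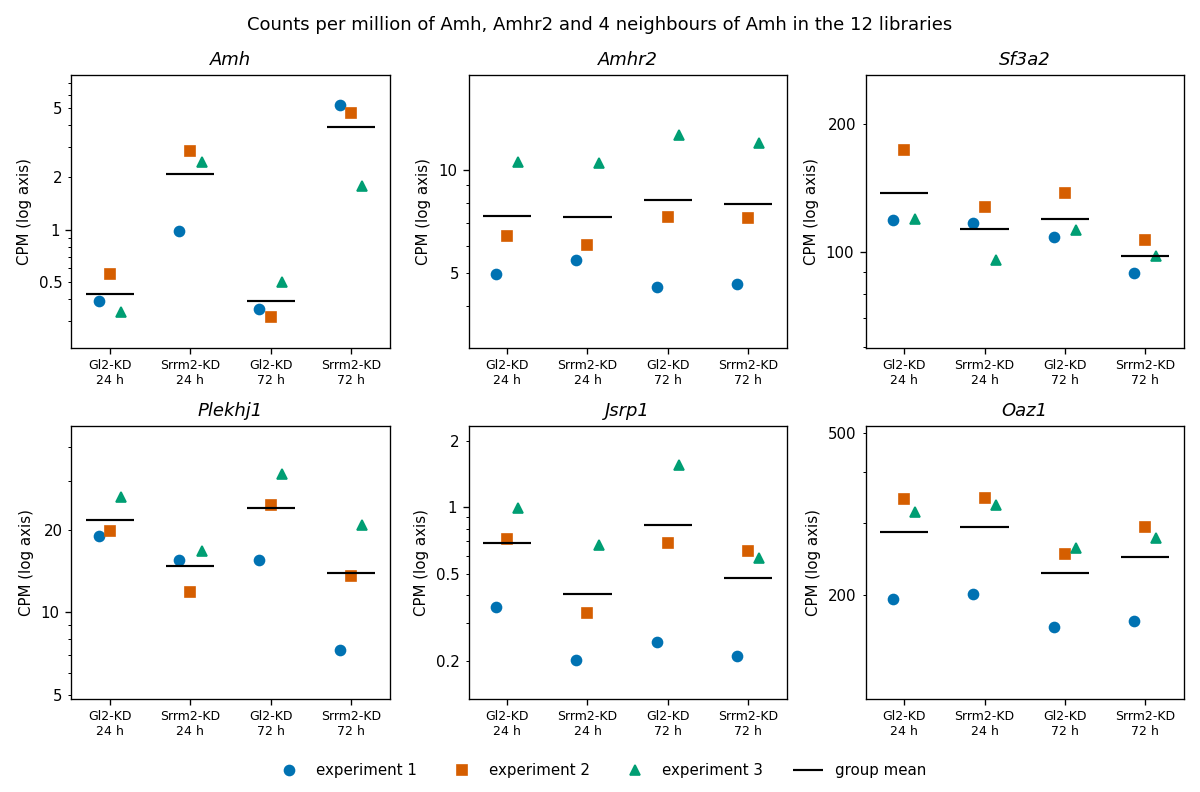
CPM (log axis, 1 panel per gene) of the 6 members in the 12 libraries, with points marked by experiment and a bar at each group mean. *Amh* is higher in each of the 6 Srrm2-KD libraries than in any Gl2-KD library, with group means of 0.427, 2.09, 0.389 and 3.89 CPM from left to right, and the *Amhr2* points keep the order of the experiments in every group.

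None of the 5 members other than *Amh* was called at an adjusted p below 0.05 by edgeR or limma-voom in any of 6 contrasts. Before adjustment, p was below 0.05 for 3 of the 5 at 24 h (*Sf3a2*, *Plekhj1* and *Jsrp1*) and for 2 at 72 h (*Sf3a2* and *Plekhj1*). That is to be read against the whole table: 0 of 19410 genes (0%) were called for the knockdown at 24 h, 0 (0%) at 72 h, 13 (0.0670%) for the mean of both times and 0 (0%) for the difference of the effects between times. Between times, 282 genes (1.45%) were called in Gl2-KD and 107 (0.551%) in Srrm2-KD. Before adjustment p was below 0.05 for 508 genes for the knockdown at 24 h, 2498 at 72 h and 319 for the difference of the effects.

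Other tools called more of the table. DESeq2 called 25 genes (0.129%) at 24 h, 542 of the 16023 to which it gave an adjusted p (3.38%) at 72 h, 733 of 15647 (4.68%) for the mean of both times and 1338 of 16399 (8.16%) between times in Gl2-KD. It called 2 genes for the difference of the effects. limma-voom called 2 genes at 24 h, 4 at 72 h and 0 for the difference. Of the 5 members, DESeq2 called *Plekhj1* at 72 h, *Plekhj1* and *Sf3a2* for the mean of both times, and *Oaz1* between times in Gl2-KD. Groups that did not overlap occurred in 681 genes (3.51%) at 24 h, where *Plekhj1* was the 1 of the 5 members among them, and in 1294 genes (6.67%) at 72 h, where *Sf3a2* was.

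Per kilobase of exon, the order of mean level was *Oaz1*, *Sf3a2*, *Plekhj1*, *Amhr2*, *Jsrp1* and *Amh* in both Gl2-KD groups. *Amh* averaged 0.256 CPM per kb in Gl2-KD 24 h and *Jsrp1* 0.517 CPM per kb, and their library values overlapped. In Srrm2-KD the last places changed, with *Amh* at 1.25 CPM per kb at 24 h and 2.33 CPM per kb at 72 h against 0.303 CPM per kb and 0.358 CPM per kb of *Jsrp1*, and no library value of *Amh* at or below one of *Jsrp1* in the same group. *Amhr2* averaged 3.96 CPM per kb in Srrm2-KD 72 h, and its library values, from 2.31 to 5.98 CPM per kb, overlapped those of *Amh*, from 1.06 to 3.11 CPM per kb. In experiment 1 of that group the ligand was above its receptor gene on this scale. *Plekhj1* stood between 8.04 CPM per kb and 13.9 CPM per kb in the 4 groups, *Sf3a2* between 37.0 CPM per kb and 51.9 CPM per kb, and *Oaz1* between 88.9 CPM per kb and 115 CPM per kb, and the libraries of these 3 genes did not overlap within a group. *Plekhj1* and *Amhr2* overlapped in Srrm2-KD 72 h, and in no other group.

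Along chromosome 10 *Amh* had the highest log2 fold change of its surroundings at both times. That place is a description only, since the gene was chosen with its rise known. The annotation holds 15 other genes within 100 kb, of which 14 passed the filter, and *Mir1982*, inside *Oaz1*, was listed at 0. None of the 14 was called by edgeR in a knockdown contrast, and DESeq2 called 1 at 72 h, *Plekhj1*, and limma-voom none. Before adjustment p was below 0.05 for 4 of them at 24 h (*Plekhj1*, *Sf3a2*, *Jsrp1* and *Tmprss9*) and for 3 at 72 h (*Dot1l*, *Plekhj1* and *Sf3a2*), all lower. Over all 19410 genes tested it was below 0.05 for 508 at 24 h, 285 of them lower. At 72 h it was for 2498, 1525 of them lower. *Tmprss9* had a log2 fold change of -2.76 (SE 1.18) at 24 h, from at most 36.2 counts. The median log2 fold change of the 14 neighbours was -0.11 at 24 h and -0.21 at 72 h, beside 0.01 and -0.02 over all genes tested. At each time 10 of the 14 were negative.

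Within 50 kb, *Dot1l*, the histone H3 lysine 79 methyltransferase gene that converges on *Plekhj1* from its 3′ side, had a log2 fold change of -0.16 (SE 0.09) at 24 h and -0.27 (SE 0.09) at 72 h. *Lsm7*, which encodes a subunit of the LSM ring on U6 snRNA, had 0.11 (SE 0.12) and 0.15 (SE 0.12). *Lingo3* had -0.07 (SE 0.24) and -0.22 (SE 0.24), and *Sppl2b*, an intramembrane protease gene, had -0.32 (SE 0.19) and -0.19 (SE 0.19). *Gm17151*, an antisense gene inside *Dot1l*, reached at most 26.8 counts and had 0.51 (SE 1.22) and 0.76 (SE 1.17), the standard errors exceeding the values. Of the genes between 50 kb and 100 kb away, *Ap3d1*, *Timm13* and *Lmnb2* had log2 fold changes between -0.08 and 0.09, and *Izumo4* and *Tmprss9* reached at most 44.6 counts.

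**Figure D3:**
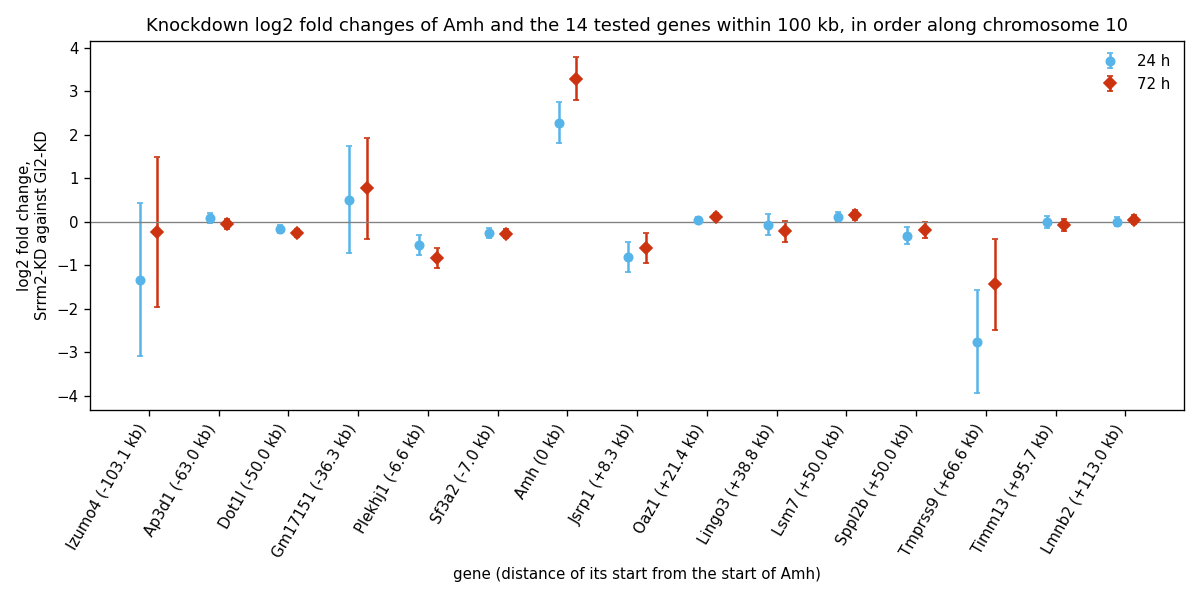
Log2 fold change of Srrm2-KD against Gl2-KD (points, with the standard error as bars) at 24 h and 72 h for *Amh* and the 14 tested genes within 100 kb, in order along chromosome 10, with the distance of each start from that of *Amh*. *Amh* lies at 2.27 and 3.29, *Plekhj1*, *Sf3a2* and *Jsrp1* lie between -0.83 and -0.26, and the wide bars belong to *Izumo4*, *Gm17151* and *Tmprss9*, which have few counts.

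Likeness to *Amh* was measured as Pearson's r of log2 CPM over the 12 libraries with experiment means removed, and is a description, since libraries share their siRNA group and time. The 5 genes with the highest r were *Cep295nl* (0.945), *8430429K09Rik* (0.934), *Scd3* (0.932), *Edn2* (0.925) and *Glod5* (0.921). *Edn2*, the endothelin 2 gene, had log2 fold changes of 1.35 (SE 0.50) at 24 h and 2.60 (SE 0.51) at 72 h from at most 109 counts, and *Cep295nl* had 2.50 (SE 0.78) and 2.55 (SE 0.74) from at most 25 counts. *Scd3*, a stearoyl-CoA desaturase gene, had 0.39 (SE 0.25) and 0.94 (SE 0.25). *8430429K09Rik* had 0.33 (SE 0.22) and 0.70 (SE 0.22), and *Glod5* had 0.49 (SE 0.16) and 0.53 (SE 0.16).

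Of the neighbours, *Plekhj1*, *Sf3a2* and *Dot1l* lay near the other end of that ranking and the rest were spread along it. *Plekhj1* had r = -0.922 and *Sf3a2* r = -0.814 with *Amh*, places 19383 and 19072 of 19409, and *Srrm2* itself had r = -0.923. *Dot1l* had r = -0.810, place 19061, and *Lsm7*, with the highest r among the neighbours, 0.649. *Jsrp1* had r = -0.610, *Oaz1* r = 0.170 and *Amhr2* r = -0.136. With the group means removed as well, an alternative added after the data were seen, r was -0.779 for *Plekhj1*, -0.539 for *Sf3a2*, 0.308 for *Jsrp1*, 0.486 for *Oaz1*, -0.526 for *Amhr2* and -0.0055 for *Dot1l*. For the 5 genes most like *Amh* it was 0.613 for *Cep295nl*, 0.833 for *8430429K09Rik*, 0.842 for *Scd3*, 0.497 for *Edn2* and 0.631 for *Glod5*. With no means removed, *Glod5* had r = 0.372 and the other 4 between 0.785 and 0.887.

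The other genes of AMH signalling were detected in these cells, and none passed the test. The list comprised *Amhr2*, the type I receptors *Acvr1*, *Bmpr1a* and *Bmpr1b*, the signal-transducing *Smad1*, *Smad5*, *Smad9* and *Smad4*, the inhibitory *Smad6* and *Smad7*, and *Furin* and *Pcsk5*, proprotein convertases that can process the AMH precursor. None of these 12 was called in any of the 6 contrasts by edgeR, and DESeq2 and limma-voom called none. Before adjustment p was below 0.05 for 1 gene at 24 h, *Smad9*, and for 1 gene at 72 h, *Smad6*. Their median log2 fold change was -0.01 at 24 h and -0.03 at 72 h.

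Levels within the pathway differed widely. Per kilobase and averaged over all libraries, *Smad4*, the common partner SMAD, stood at 17.6 CPM per kb, *Smad7* at 13.8 CPM per kb and the receptor *Bmpr1a* at 7.59 CPM per kb. *Smad5* stood at 4.43 CPM per kb, *Smad1* at 2.22 CPM per kb and *Acvr1* at 1.16 CPM per kb, whereas *Bmpr1b* and *Smad9* were at 0.12 CPM per kb and 0.06 CPM per kb. The largest differences at 72 h were those of *Smad6*, with a log2 fold change of -0.78 (SE 0.25, edgeR adjusted p = 0.245), *Furin*, with -0.35 (SE 0.24), and *Smad9*, with 0.32 (SE 0.40). *Smad9* had -0.999 (SE 0.41, edgeR adjusted p = 1) at 24 h, from at most 59.4 counts.

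**Figure D4:**
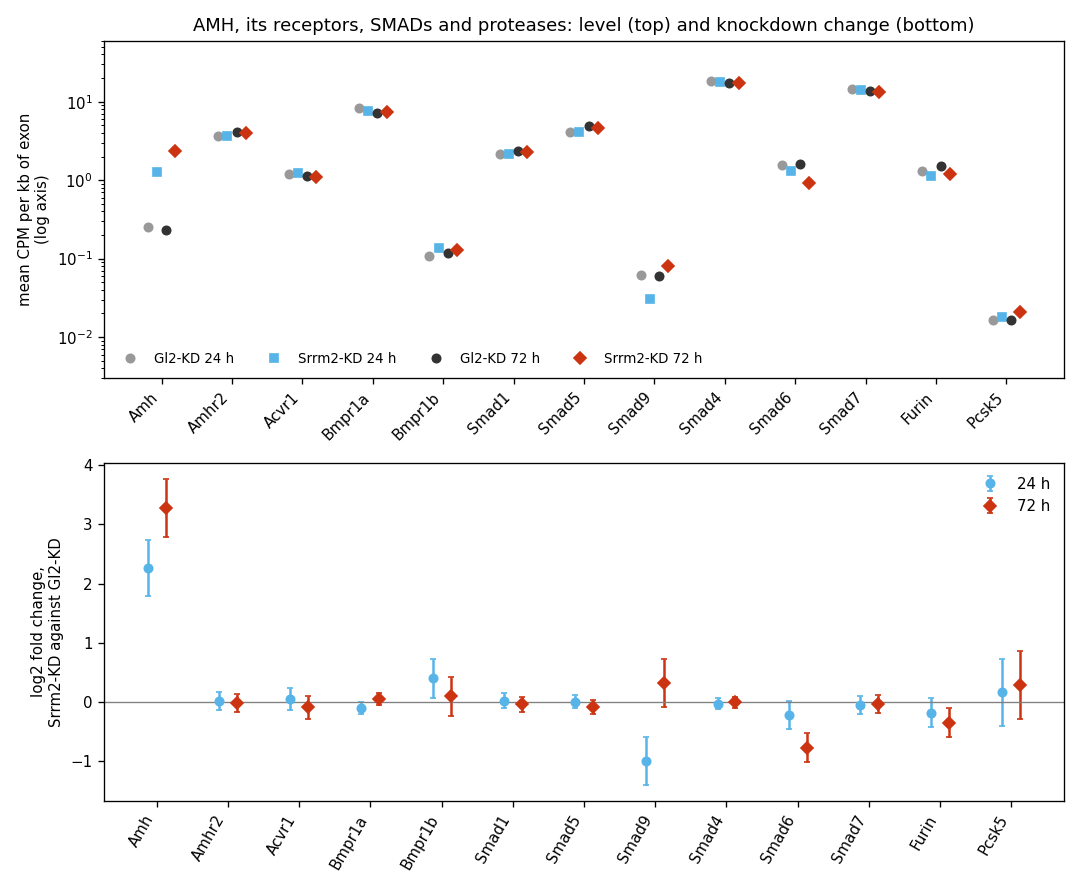
Upper panel, mean CPM per kb of exon (log axis) of *Amh* and the other 12 genes of AMH signalling in the 4 groups, and lower panel, their log2 fold change of Srrm2-KD against Gl2-KD with its standard error at 24 h and 72 h. *Amh* moves from 0.256 and 0.233 CPM per kb in Gl2-KD to 1.25 and 2.33 CPM per kb in Srrm2-KD, and the other genes have a median log2 fold change of -0.01 at 24 h and -0.03 at 72 h.

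Transcription factors that regulate *Amh* in the gonad were mostly scarce. Of the 12 genes listed 10 passed the filter, and *Nr5a1* and *Foxl2*, a granulosa cell factor, did not. *Sox9*, the factor that switches on *Amh* in Sertoli cells, reached at most 21 counts, with a log2 fold change of 0.46 (SE 0.61) at 24 h and 0.08 (SE 0.56) at 72 h. *Nr0b1*, an orphan receptor also active in embryonic stem cells, was highest at 67.5 CPM per kb, followed by *Nr5a2* at 11.6 CPM per kb and *Dmrt1* at 2.57 CPM per kb. None was called in a knockdown contrast by edgeR, DESeq2 or limma-voom, the unadjusted p was below 0.05 for 1 gene at 24 h (*Zfpm2*) and 1 gene at 72 h (*Wt1*), and the medians were 0.04 at 24 h and 0.02 at 72 h.

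The largest differences at 72 h in this list were *Wt1* with a log2 fold change of 1.26 (SE 0.53, edgeR adjusted p = 0.350), *Zfpm2* with 0.93 (SE 0.54, edgeR adjusted p = 0.512) and *Gata4* with -0.84 (SE 0.40, edgeR adjusted p = 0.414). *Zfpm2*, a cofactor of GATA4, had a higher level after knockdown in 3 of 3 experiments at each time, with means at 24 h of 0.188 CPM in controls and 0.46 CPM in Srrm2-KD. Between times, *Nr0b1* fell in Gl2-KD by 0.62 on the log2 scale (edgeR adjusted p = 0.0214) and had -0.51 in Srrm2-KD (edgeR adjusted p = 0.0554). *Nr5a2* fell in Srrm2-KD by 0.69 (edgeR adjusted p = 0.0467) and had -0.48 in Gl2-KD (edgeR adjusted p = 0.0734), and DESeq2 called both genes lower in both arms.

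Markers of gonadal somatic cells were low and none was called in a knockdown contrast by edgeR, DESeq2 or limma-voom. Of 13 such genes 9 passed the filter, *Fshr*, the follicle-stimulating hormone receptor gene, was at 0 in every library, and *Foxl2*, *Cldn11* and *Nr5a1* reached at most 8 counts. The summed level of the list ran from 18.2 CPM to 44.5 CPM in Gl2-KD 24 h, from 15.04 CPM to 39.0 CPM in Srrm2-KD 24 h, from 18.8 CPM to 33.3 CPM in Gl2-KD 72 h and from 14.5 CPM to 26.5 CPM in Srrm2-KD 72 h. The median log2 fold change of the 9 genes was -0.05 at 24 h and -0.47 at 72 h, and the unadjusted p was below 0.05 for 1 gene at 24 h and for 2 genes at 72 h, of which *Wt1* was higher.

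Other lineages showed no called marker by edgeR in the knockdown contrasts either. The 6 primitive endoderm markers summed to between 2.23 CPM and 4.80 CPM over all libraries. The 5 trophoblast markers summed to between 89.1 CPM and 100.3 CPM in Gl2-KD 72 h and between 52.0 CPM and 75.5 CPM in Srrm2-KD 72 h. *Tfap2c* made up most of these sums, with means of 88.4 CPM and 62.1 CPM. It had a log2 fold change of -0.53 (SE 0.12, DESeq2 adjusted p = 0.00557) at 72 h. Of the 5 markers, 3 were higher and 2 lower at that time, with a median log2 fold change of 0.03. The skeletal muscle list had 4 of 6 genes past the filter, *Myod1* and *Myog* being too scarce, and at 72 h *Myh3* had a log2 fold change of 1.22 (SE 0.30, DESeq2 adjusted p = 0.00375) and *Acta1* of -2.30 (SE 0.51, DESeq2 adjusted p = 0.000744). Their part in the *Amh* values was not tested.

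Among the SF3A, SF3B and U2 snRNP genes, *Sf3a2* was the member with the lowest fold change. All 12 passed the filter, none was called by edgeR or limma-voom in the 6 contrasts, and the medians were 0.05 at 24 h and 0.12 at 72 h. At an unadjusted p below 0.05 there were 2 genes at each time, *Sf3b5* higher and *Sf3a2* lower. *Sf3a1* and *Sf3a3*, the other subunits of SF3a, had log2 fold changes of 0.02 (SE 0.11) and 0.11 (SE 0.11) at 24 h and -0.10 (SE 0.11) and 0.11 (SE 0.11) at 72 h. *Sf3b5* had 0.30 (SE 0.09) at 24 h and 0.27 (SE 0.09, edgeR adjusted p = 0.276) at 72 h, higher in 3 of 3 experiments at each time, and DESeq2 called it for the mean of both times. *Sf3b3* had 0.37 (SE 0.19) and *Sf3b1*, the branch site binding subunit, 0.19 (SE 0.10) at 72 h. Per kilobase the most abundant were *Sf3a3* at 69.3 CPM per kb, *Sf3b2* at 64.9 CPM per kb and *Sf3b4* at 64.7 CPM per kb.

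In the antizyme and polyamine list 11 of 12 genes passed the filter, *Oaz3*, the testis antizyme gene, being the exception. None was called by edgeR or limma-voom in a knockdown contrast, with an unadjusted p below 0.05 for 0 genes at 24 h and for *Smox* and *Srm*, 2 genes, at 72 h, and medians of 0.04 at 24 h and -0.03 at 72 h. *Odc1*, the ornithine decarboxylase gene and target of antizyme, fell between 24 h and 72 h by 0.39 on the log2 scale in Gl2-KD (edgeR adjusted p = 0.0488) and by 0.47 in Srrm2-KD (edgeR adjusted p = 0.0467). *Srm*, the spermidine synthase gene, was highest at 208 CPM per kb, followed by *Odc1* at 104 CPM per kb and *Oaz1* at 103 CPM per kb. The largest differences at 72 h were *Smox*, the spermine oxidase gene, with -0.77 (SE 0.23, edgeR adjusted p = 0.221, DESeq2 adjusted p = 0.0377), *Srm* with -0.30 (SE 0.12, edgeR adjusted p = 0.326) and *Amd1* with 0.30 (SE 0.15).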

How the data were processed

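PolyA+ RNA from 12 cultures was sequenced as 100-bp paired-end reads from stranded libraries. The authors quantified the reads with Kallisto 0.46.1 against GENCODE M24 (mm10) transcripts and deposited estimated counts per gene, which need not be whole and were rounded here. No normalization had been applied to the deposited expected counts, and whether strand was used is not stated. Every column of the table was used. Identifiers were matched to GENCODE M21 (GRCm38), which named 42156 of 42450 genes, the rest holding 0.175% of counts.

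Genes were filtered with filterByExpr (minimum count 10) and tested in R 4.3.3 with edgeR 4.0.16 (TMM factors, quasi-likelihood test, Benjamini-Hochberg adjustment) in 1 model of 4 groups across all 12 libraries, with the experiment number as a block in place of the RNA processing day, which was not used here. Depth was 73933196 to 153343831 counts per library. Experiment numbers come from the sample labels, and 18 same-numbered pairs of libraries deviated together from their group means (r from 0.281 to 0.747), against -0.628 to 0.231 in 36 other pairs. DESeq2 1.42.0 and limma 3.58.1 were alternatives, and all 3 tools were checked on simulated data. There DESeq2 called more of the unchanged genes than the others, beyond the intended false discovery rate. The simulation had no experiment effect, and the scarcest genes were left out of the changed ones. The check therefore does not show how the tools behave with differences between experiments or on changes in scarce genes. Levels per length are CPM divided by the kilobases of merged exons. The members and gene lists were chosen with earlier results of these data known. Named are *Srrm2*, the members, tested genes within 50 kb of *Amh*, the 3 most abundant and 3 most changed genes of each of 5 pathway lists with every called gene, and the 5 genes most like *Amh*. Cell type markers named beyond this were chosen after their values were seen.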

Additional observations from a re-analysis of the deposited data

Results flagged for a closer look

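*Sox8* and *Sox7* were picked out because their difference between Srrm2-KD and Gl2-KD was negative in 3 of 3 experiments at 24 h and positive in 3 of 3 experiments at 72 h. The difference of the knockdown effects, 72 h minus 24 h, was 0.90 (SE 0.86, edgeR adjusted p = 1) for *Sox8* and 0.60 (SE 0.39, edgeR adjusted p = 1) for *Sox7* on the log2 scale, so neither passed the test of the difference. *Sox8* held 9 to 103 counts per library and *Sox7* 38 to 287.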

How the results depend on the processing

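*Amh* kept its positive log2 fold change in all 28 alternatives at 24 h (1.94 to 2.69) and at 72 h (2.70 to 3.90), each moving by less than the spread between experiments. In all 28 alternatives at each time *Sf3a2*, *Plekhj1* and *Jsrp1* kept a negative and *Oaz1* a positive value. *Plekhj1* at 72 h passed the threshold with DESeq2 (-0.82), with each time point fitted alone (-0.86) and with a replicate block for each experiment and time (-0.86, chosen after seeing the data), and not in the other 25 alternatives. For the mean of both times *Plekhj1* was called in 4 of 27 alternatives and *Sf3a2* in 2 of 27.

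Called genes at 24 h, 0 in the reported fit, were 25 with DESeq2, 2 with limma-voom and 1 each with edgeR's newer quasi-likelihood method, robust fitting, no filter and at least 10 counts in every library. At 72 h, also 0 as reported, they were 542, 4, 5 (newer method), 42 (no filter), 1 (at least 10 counts), 323 with each time point fitted alone and 724 with the replicate block for each experiment and time. For the mean of both times, 13 as reported, they were 733, 92, 25 (RLE factors), 79, 47 (robust), 123, 93, 0 with no replicate block, 3 with experiment 1 against the others as the batch and 1124 with the replicate block for each experiment and time. For the difference of the effects they were 2 with DESeq2 and 1 with no filter. Between times in Gl2-KD (282 as reported) they were 1338, 482, 624 (newer method), 476 (at least 10 counts), 0 with no replicate block and 0 with the experiment 1 batch. In Srrm2-KD (107) they were 1061, 259, 279, 212 (no filter), 176, 0 and 0. The cause was not tested.

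Leaving out a library or an experiment gave 0 to 10 called genes at 24 h, 0 to 55 at 72 h, 0 to 288 for the mean of both times (the highest on leaving out experiment 1 of Srrm2-KD 24 h), 0 to 2 for the difference of the effects, 0 to 387 between times in Gl2-KD and 0 to 135 in Srrm2-KD. Values near 0 changed sign. *Amhr2* at 24 h was -0.0032 with no replicate block, and for the mean of both times it was 0.0012 with DESeq2, 0.0018 with RLE factors, 0.0019 with no filter and 0.0033 with at least 10 counts. The difference of the effects was 0.0011 for *Sf3a2* with DESeq2 and with RLE factors, and -0.029 for *Jsrp1* with no replicate block. When libraries were left out, *Amh* ran from 0.26 to 1.96 for the difference, from -0.475 to 0.23 between times in Gl2-KD and from 0.21 to 1.49 in Srrm2-KD. *Amhr2* ran from -0.12 to 0.083 at 24 h, from -0.134 to 0.0387 at 72 h, from -0.0757 to 0.0249 for the mean, from -0.142 to 0.0886 for the difference and from -0.0494 to 0.228 between times in Srrm2-KD. *Sf3a2* ran from -0.119 to 0.105 for the difference. *Plekhj1* ran from -0.509 to 0.0162 for the difference, from -0.0223 to 0.297 between times in Gl2-KD and from -0.464 to 0.258 in Srrm2-KD. *Jsrp1* ran from -0.222 to 0.783 for the difference, from -0.282 to 0.316 between times in Gl2-KD and from -0.0979 to 0.525 in Srrm2-KD.

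Where an arm is left with few libraries, the fit assumes that they vary like the other groups. *Amh* and *Jsrp1* rest on 30 to 834 counts per library, which limits their precision. With the longest transcript as length, *Plekhj1* and *Sf3a2* levels rose to 17.2 CPM per kb and 62.3 CPM per kb in Gl2-KD 24 h, with the order of the members unchanged. A pseudocount of 5 changed the *Amh* to *Sf3a2* shift to 2.32 at 24 h and 3.37 at 72 h.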
